A study of Mauremys reevesii with 3 samples.

Results

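The miR-7 entries of a small RNA sequencing table made from Chinese pond turtle (Mauremys reevesii) embryos were examined. They were taken as all entries whose name, without its species prefix, is miR-7 with any letter, copy number or arm suffix, which gave 13 of the 1743 entries. Many entries describe the same molecule under names from different species, so 3 main entries stand for the forms described here. These are gga-miR-7 for the main 5p form, mmu-miR-7b-5p for the 7b form and oan-miR-7-1-3p for the 3p arm. miR-7 was selected on the count of gga-miR-7, which was higher in each warmer library, so its values over the temperatures are a description and carry no test.

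The eggs were incubated at 26, 29 or 32 °C until Greenbaum stage 16, when the embryonic gonad begins to respond to temperature. Whole adrenal-kidney-gonad complexes were dissected, and the labels also call them gonad. The 3 biological samples of a temperature were mixed as RNA before a single library was built from them, so each of the 3 groups is 1 library and differences between temperatures are unreplicated. Sex is set by incubation temperature in this species, where cool eggs give mostly males and warm eggs mostly females. In bulk tissue of this kind, fewer cells that hold a miRNA and less of it per cell cannot be told apart.

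miRNAs are short RNAs that guide Argonaute proteins to messenger RNAs, mainly by pairing of the seed near their 5′ end, and lower the output of those messengers. Each is cut from a hairpin whose 5′ and 3′ sides give the 5p and 3p strands, of which usually 1 is kept. miR-7 is conserved from flies to mammals. In mammals it is known from neurons, the pituitary and the endocrine pancreas, it targets messengers of growth factor signalling, and in the brain it is bound by the circular RNA CDR1as. Its mature 5p strand is made from more than 1 hairpin gene in mammals, and the 7b form comes from a gene of its own in mouse and fish.

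The sequences of the 3 main entries are shown because they differ by a single base outside the seed, or by strand, and yet had different orders over the temperatures. They are written 5′ to 3′ as the deposited table gives them, with bases 2 to 8, the seed, in capitals.
gga-miR-7: uGGAAGACuagugauuuuguug
mmu-miR-7b-5p: uGGAAGACuugugauuuuguugu
oan-miR-7-1-3p: cAACAAAUcgcagucugccaua
asu-miR-7-5p: uGGAAGACuggugauuuuguuguu
Counting from 1 at the 5′ end of gga-miR-7, the 7b form carries A10U and asu-miR-7-5p, named after a roundworm, carries A10G. All 11 entries of 5p strands share the seed of gga-miR-7, and the 2 entries of 3p strands share another. The seed of gga-miR-7 occurred in 1 further entry of the table, the predicted novel_636 with 2, 2 and 4 counts at 26, 29 and 32 °C. That entry carries A10U, as the 7b form does, and is 24 bases long.

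The main 5p form was the most counted form of miR-7 at every temperature and was higher in each warmer library. gga-miR-7 had 21124, 26560 and 33098 counts in the 26, 29 and 32 °C libraries. Scaled to an equal table total per library (CPM, the same scale as the deposited TPM), its level at 26 °C was 2260, with a 95% Clopper-Pearson interval of 2229 to 2290, and it was 2760 at 29 °C (2727 to 2793) and 3443 at 32 °C (3406 to 3480). The 3 intervals did not overlap. All intervals here cover counting error only, and they may be too narrow even for that, since reads were amplified and no molecular identifiers separate copies from molecules.

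The 7b form went the opposite way, with its lowest level in the warmest library. mmu-miR-7b-5p had 2845, 2699 and 2036 counts at 26, 29 and 32 °C. Its level was 304 CPM (293 to 316) at 26 °C, 280 CPM (270 to 291) at 29 °C and 212 CPM (203 to 221) at 32 °C. The 26 and 29 °C intervals of the 7b level nearly touched, and the 32 °C interval lay well below both.

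The 3p arm, the strand opposite the 5p strand in the miR-7-1 hairpin, was the rarest of the 3 and was also lowest at 32 °C. oan-miR-7-1-3p had 240, 256 and 192 counts at 26, 29 and 32 °C. Its level was 25.7 CPM (22.5 to 29.1), 26.6 CPM (23.4 to 30.1) and 20.0 CPM (17.2 to 23.0). The 26 and 29 °C levels of the 3p arm were indistinguishable at this depth, and the 32 °C interval overlapped that of 26 °C narrowly.

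**Figure D1:**
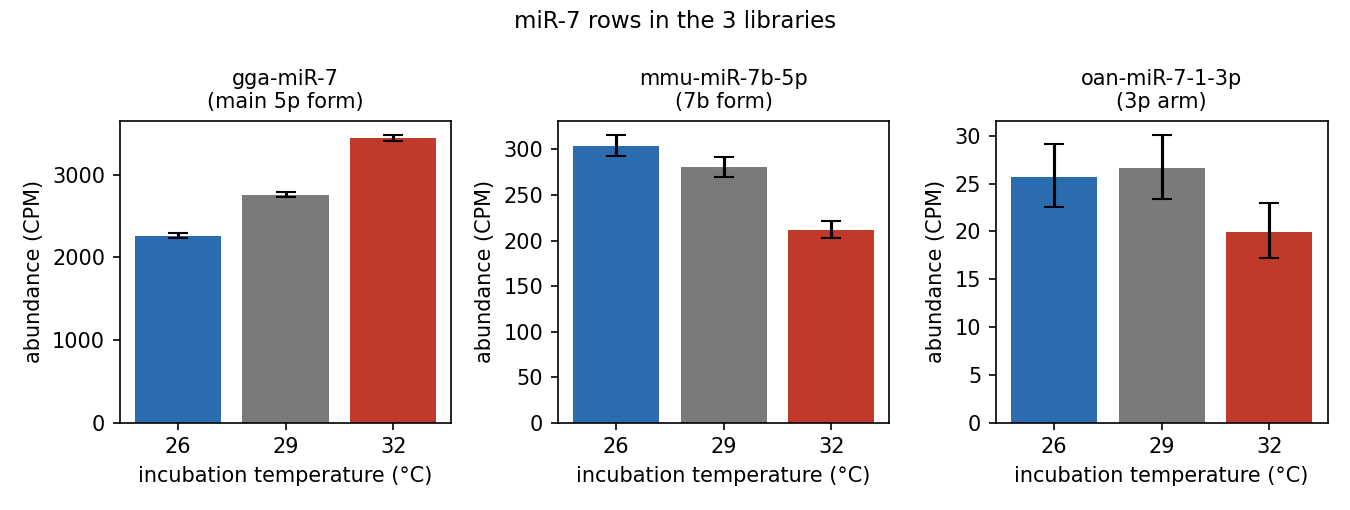
Abundance of the 3 main miR-7 entries in CPM (vertical axes, each from 0) against incubation temperature in °C, with 1 library per bar and 95% exact counting intervals as error bars. gga-miR-7 is at 2260, 2760 and 3443 CPM, while mmu-miR-7b-5p and oan-miR-7-1-3p have their lowest bars at 32 °C, at 212 and 20.0 CPM.

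As ratios between libraries, gga-miR-7 was 1.52-fold higher at 32 than at 26 °C (95% exact conditional interval 1.498 to 1.550), a log2 ratio of 0.61. On the log2 scale the steps on the table total were 0.29 (0.26 to 0.31) from 26 to 29 °C and 0.32 (0.30 to 0.34) from 29 to 32 °C. These 2 steps share the 29 °C library, and their relative size depended on the scaling, with 0.31 (0.28 to 0.33) and 0.52 (0.49 to 0.54) under trimmed-mean (TMM) factors. For mmu-miR-7b-5p the steps on the table total were a log2 ratio of -0.12 (-0.19 to -0.04) from 26 to 29 °C and -0.41 (-0.49 to -0.32) from 29 to 32 °C. With TMM factors they were -0.10 (-0.18 to -0.02) and -0.21 (-0.29 to -0.12), with overlapping intervals. On the table total it was 1.44-fold lower (1.36 to 1.52) at 32 than at 26 °C. For oan-miR-7-1-3p the log2 ratio was 0.05 (-0.21 to 0.31) from 26 to 29 °C, which included equality, and -0.41 (-0.69 to -0.14) from 29 to 32 °C. Between 32 and 26 °C the 3p arm had a log2 ratio of -0.36 (-0.64 to -0.08). With TMM factors that ratio was -0.15 (-0.43 to 0.13), so that whether the 3p arm was lower at 32 °C depended on the scaling of the libraries.

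The scaling matters for all 3 entries. Over entries with at least 10 counts in either library and a count in both, the median log2 ratio shifted with it. Between 32 and 26 °C that median was -0.13 on the table total and 0.09 with TMM factors. gga-miR-7 stood at 0.82 (0.80 to 0.85) and mmu-miR-7b-5p at -0.31 (-0.39 to -0.23) with TMM factors. The main form was above equality and the 7b form below it for 32 over 26 °C under each of the 5 scalings computed.

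**Figure D2:**
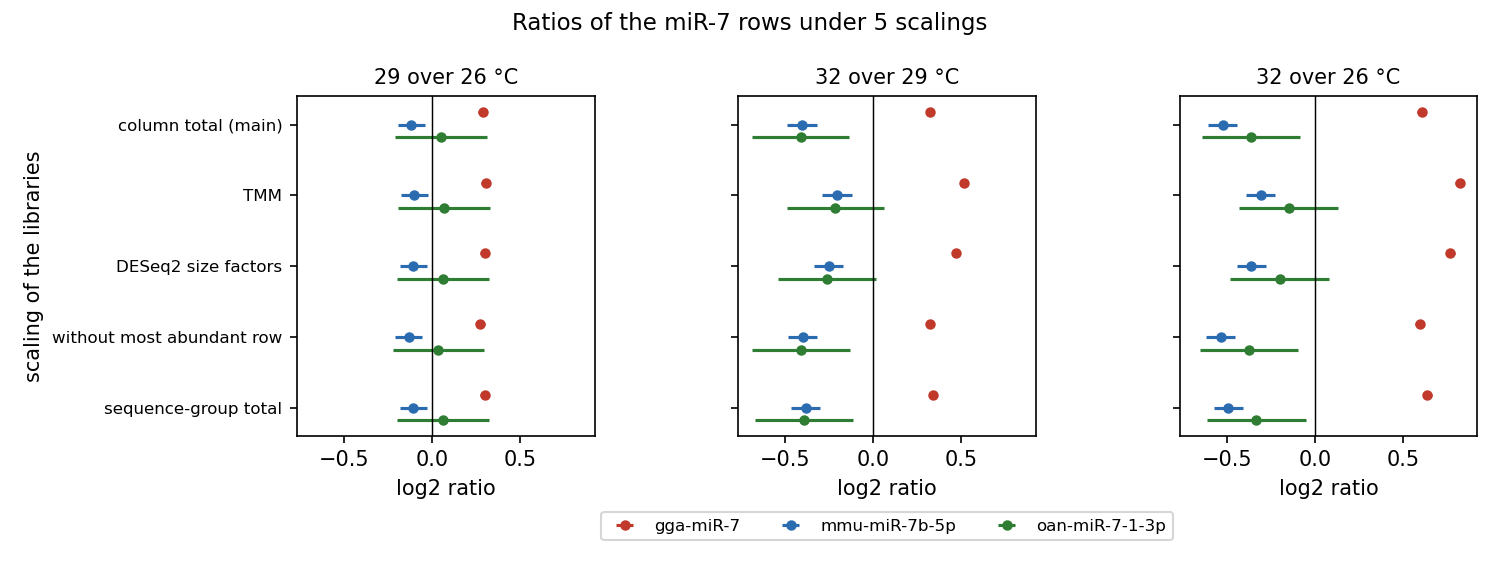
Log2 ratios of the 3 main miR-7 entries for each pair of libraries (horizontal axes) under 5 scalings of the libraries (vertical axis), with 95% exact conditional intervals as bars; intervals of gga-miR-7 are mostly hidden by its points. For 32 over 26 °C, gga-miR-7 lies between 0.60 and 0.82, mmu-miR-7b-5p between -0.53 and -0.31, and the interval of oan-miR-7-1-3p includes 0 with TMM and DESeq2 factors only.

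Comparing forms within 1 library removes the scaling. The 7b form made up 11.9% (exact interval 11.5% to 12.3%) of the 23969 counts of gga-miR-7 and mmu-miR-7b-5p together at 26 °C, 9.22% (8.90% to 9.56%) of 29259 at 29 °C and 5.79% (5.55% to 6.04%) of 35134 at 32 °C. The 3 intervals of this share did not overlap. The rise of gga-miR-7, on which miR-7 was selected, enters the share, so it is a description and carries no test. The odds of 7b against the main form were 2.19-fold lower (95% exact conditional interval 2.06 to 2.32) at 32 than at 26 °C. They were 1.33-fold lower (1.25 to 1.40) at 29 than at 26 °C and 1.65-fold lower (1.56 to 1.75) at 32 than at 29 °C. Since gga-miR-7 was the larger part, the sum of both forms was still 1.43-fold higher in CPM (1.40 to 1.45) at 32 than at 26 °C.

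The main 5p form outnumbered the miR-7-1 3p arm most in the warmest library. The 5p form may come from more than 1 hairpin, whereas this 3p entry is named for miR-7-1 only. The only other 3p entry, aca-miR-7-2-3p, had 0, 0 and 1 counts at 26, 29 and 32 °C. The ratios below are therefore between entries and not between the strands of a single hairpin. There were 88.0 counts of gga-miR-7 per count of oan-miR-7-1-3p at 26 °C (exact interval 77.5 to 100.4), 104 (91.7 to 118) at 29 °C and 172 (150 to 200) at 32 °C. The odds of gga-miR-7 against oan-miR-7-1-3p were 1.96-fold higher (1.61 to 2.38) at 32 than at 26 °C and 1.66-fold higher (1.37 to 2.02) at 32 than at 29 °C. Between 29 and 26 °C the odds ratio was 1.18 (0.98 to 1.41), which included equality. The rise of gga-miR-7, on which miR-7 was selected, is part of these ratios too, so they are likewise a description. Adding the 7b form to the 5p side, since the hairpin of each read is unknown, gave 99.9, 114 and 183 counts per 3p count and a 1.83-fold difference (1.51 to 2.23) between 32 and 26 °C.

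The 3p arm kept closer to the 7b form than to the main form, a comparison chosen after the values were seen. There were 11.9 counts of mmu-miR-7b-5p per count of oan-miR-7-1-3p at 26 °C (10.4 to 13.6), 10.5 (9.27 to 12.0) at 29 °C and 10.6 (9.14 to 12.4) at 32 °C. The interval of the odds ratio included equality in every pair of libraries. Between 32 and 26 °C it was 0.89 (0.73 to 1.10), so a difference of up to 1.37-fold lower or 1.10-fold higher lay within counting error.

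**Figure D3:**
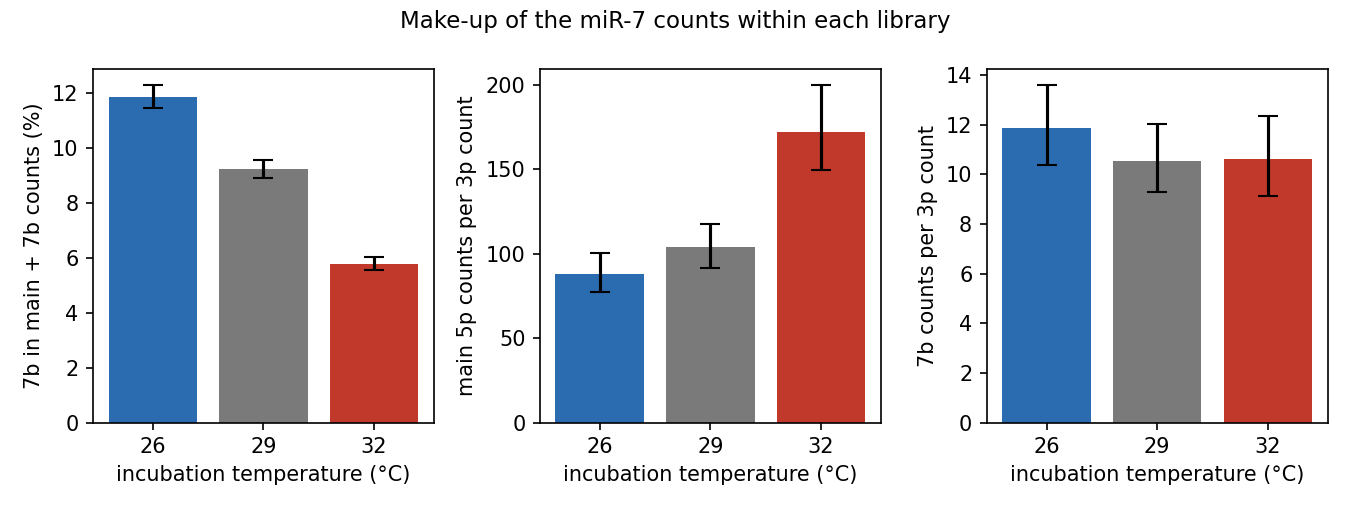
Make-up of the miR-7 counts within each library against incubation temperature in °C (1 library per bar, vertical axes from 0, 95% exact counting intervals as error bars). The left panel gives the percentage of the 7b form in the counts of gga-miR-7 and mmu-miR-7b-5p, which is 11.9%, 9.22% and 5.79%; the middle panel gives gga-miR-7 counts per oan-miR-7-1-3p count, which is highest at 32 °C with 172; the right panel gives mmu-miR-7b-5p counts per oan-miR-7-1-3p count, with overlapping intervals.

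The remaining 10 miR-7 entries either repeated these forms or had few counts. ggo-miR-7, which lacks the last base of gga-miR-7, had 21124, 26557 and 33095 counts, and dme-miR-7-5p, with 1 base more, had 21110, 26530 and 33053. The counts of these 3 length versions were nearly the same in every library, so they are taken as 1 form and are no independent support for each other. In the same way dre-miR-7b, a shorter version of mmu-miR-7b-5p, had 2803, 2654 and 2012 counts.

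The other entries carry changed bases, and some differ in length as well. asu-miR-7-5p (A10G) had 73, 92 and 85 counts at 26, 29 and 32 °C, and its ratio of 1.13 (0.82 to 1.57) between 32 and 26 °C included equality. At the same position, mmu-miR-7b-5p (A10U) gave 13.5%, 10.2% and 6.15% of the gga-miR-7 count, against 0.35%, 0.35% and 0.26% for asu-miR-7-5p. These entries also differ in length, with 23 bases in mmu-miR-7b-5p and 24 in asu-miR-7-5p. A 24-base entry with A10U, novel_636, had 2, 2 and 4 counts, fewer than asu-miR-7-5p in each library. The percentages therefore do not compare the 2 bases alone. cte-miR-7 (G19A) had 28, 27 and 26 counts, gga-miR-7b had 11, 13 and 9, and sme-miR-7d-5p (G13A) had 11, 10 and 5. Despite its name, gga-miR-7b has the base of the main form at position 10 and differs further along. The last 3 entries, sma-miR-7-5p, aca-miR-7-2-3p and pma-miR-7b, stayed under 10 counts in every library, with at most 5.

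An entry with the antisense sequence of miR-7 had nearly the counts of gga-miR-7. This entry, hsa-miR-3529-3p, named after a human miRNA, holds the exact reverse complement of gga-miR-7, shown here in capitals because its counts followed those of gga-miR-7.
hsa-miR-3529-3p: aaCAACAAAAUCACUAGUCUUCCA
It had 20667, 25913 and 32270 counts at 26, 29 and 32 °C, which is 97.8%, 97.6% and 97.5% of gga-miR-7. Its log2 ratio between 32 and 26 °C was 0.60 (0.58 to 0.63), against 0.61 for gga-miR-7. How strand was treated in counting is not given in the sources used here, so sense and antisense reads cannot be told apart in these 2 entries, and whether any transcript antisense to miR-7 was present was not tested.

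Set against the whole table, gga-miR-7 combined a high level with a ratio that only rare molecules exceeded. The rise of gga-miR-7, on which miR-7 was selected, sets this ratio, so its place is a description and carries no test. Joining entries that have 16 or more consecutive bases in common, on the same or the opposite strand, gave 973 sequence groups, each represented by its most counted entry. On the total of those representatives gga-miR-7 was 0.711%, 0.875% and 1.11% at 26, 29 and 32 °C, and its rank by count was 23, 21 and 16. Of 371 sequence groups with at least 10 counts in either library, 53 had a larger ratio between 32 and 26 °C, but 0 of the 64 groups that averaged at least 100 CPM did. The median log2 ratio of those 64 groups was -0.11. mmu-miR-7b-5p had 13 of the 64 groups below it, and 50 above. Of the 371 groups, 133 lay below mmu-miR-7b-5p and 237 above, and 151 lay below oan-miR-7-1-3p and 218 above. The median log2 ratio of the 371 groups was -0.23, so ratios as low as those of these 2 entries were common.

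**Figure D4:**
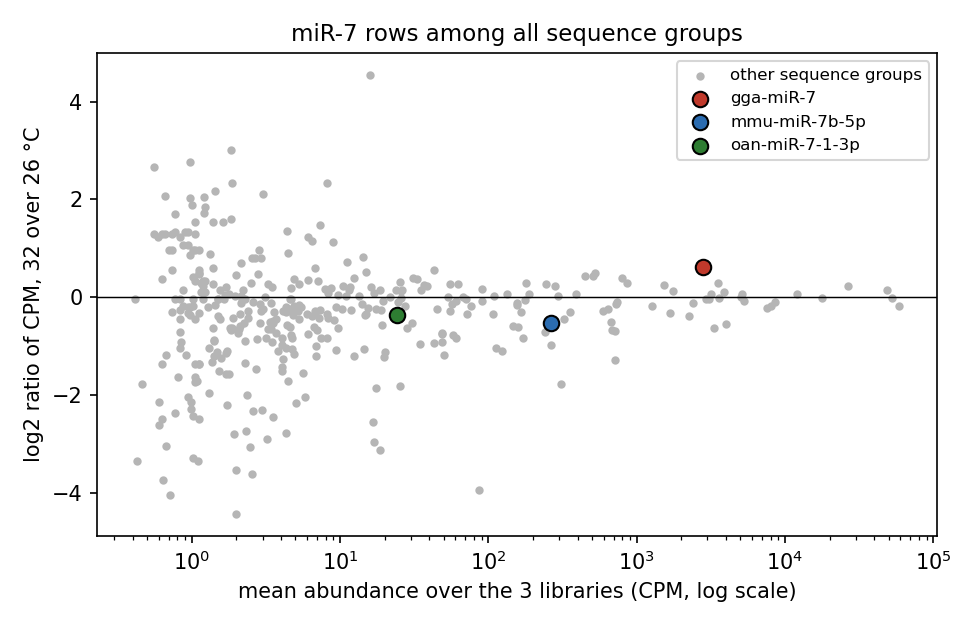
Log2 ratio of CPM between 32 and 26 °C (vertical axis) against mean abundance over the 3 libraries in CPM (horizontal log axis) for 385 sequence groups with at least 10 counts in a library, the 8 with a count of 0 at 26 or 32 °C being left out. gga-miR-7 (0.61), selected on its rise, lies above every other group of at least 100 CPM, while mmu-miR-7b-5p (-0.52) and oan-miR-7-1-3p (-0.36) lie below 0.

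Counts of called entries are given as a description, since the choice of miR-7 used these ratios. None of the 10 miR-7 entries with at least 10 counts in some library was at least 2-fold apart with an interval that excluded equality in any pair, where 4.42% of 814 entries were higher and 13.3% lower between 32 and 26 °C, 4.56% and 6.28% of 812 between 29 and 26 °C, and 2.73% and 9.67% of 807 between 32 and 29 °C. sme-miR-7d-5p was 2.26-fold lower at 32 than at 26 °C on 5 against 11 counts, with an interval (0.72 to 8.31) that included equality. At 1.5-fold, a threshold set with the value of gga-miR-7 known, 3 of the 10 were higher between 32 and 26 °C against 5.53% of all entries, and none was lower against 20.4%. These 3 are the length versions of the main form, so they count as 1 molecule, and the lower interval limit of gga-miR-7, 1.498, was just under the threshold. The entries of the 7b form fell just short of 1.5-fold in the other direction. mmu-miR-7b-5p was 1.44-fold lower (1.36 to 1.52) and dre-miR-7b 1.43-fold lower (1.35 to 1.52), so the split rests on where the threshold lay. A higher level at both steps, with both intervals excluding equality, was found for the same 3 entries and for 2.98% of 839 entries. A lower level at both steps was found for both entries of the 7b form and for 9.54% of all entries. By sequence group, 9 of 393 (2.29%) were higher at both steps. With TMM factors 58 entries were, in place of 25, so the rarity of this order depended on the scaling.

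Among the most abundant sequence groups, those nearest to gga-miR-7 in the size of their ratio were well below it. This order too is a description, since miR-7 was selected on the rise of gga-miR-7. Of 27 sequence groups with at least 1000 CPM in every library, let-7i (gga-let-7i), of a family that marks developmental timing, came next with a log2 ratio of 0.29 (0.27 to 0.31) between 32 and 26 °C. It had 26927, 40083 and 33815 counts, and so was highest at 29 °C. miR-125b (bfl-miR-125b), the vertebrate relative of the worm timing miRNA lin-4, stood at 0.25 (0.22 to 0.28). aca-miR-10c-5p (0.23) and mmu-miR-10b-5p (0.15), encoded in Hox clusters, followed, and then efu-let-7c (0.13).

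Likeness of pattern was measured as the distance between the log2 ratios of the 2 temperature steps, over 3 libraries and 62 other sequence groups of at least 100 CPM. miR-196 (gga-miR-196-5p), also encoded in Hox clusters, was nearest at a distance of 0.09, with 4115, 4885 and 5914 counts. Its log2 ratio between 32 and 26 °C was 0.48 (0.43 to 0.54), against 0.61 for gga-miR-7. dre-miR-125a followed at 0.16, with 4154, 4662 and 5740 counts and a log2 ratio of 0.43 (0.37 to 0.48) between 32 and 26 °C. Both were closer to gga-miR-7 in this ratio than the other groups of at least 1000 CPM. aca-miR-10c-3p (0.25), aca-miR-10c-5p (0.27) and hsa-miR-24-3p (0.27) were farther away. With 3 libraries such likeness is a description of order and step size only.

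Because miR-7 is known from neurons and endocrine cells, the other miRNAs of such cells are given beside it. Of 12 names in this list, 8 had an entry and only miR-137, miR-153 and miR-218 reached 10 counts in a library. miR-137 (dre-miR-137-3p), which acts in neuronal differentiation, had 47, 107 and 105 counts at 26, 29 and 32 °C. Its log2 ratio between 32 and 26 °C was 1.12 (0.61 to 1.65). miR-153 (efu-miR-153), a miRNA of the brain, had 19, 25 and 52 counts and stood at 1.41 (0.63 to 2.25). miR-218 (dre-miR-218b), known from motor neurons, had 30, 28 and 31 counts and stood at 0.01 (-0.77 to 0.78).

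Taking the most counted entry of each name, the list summed to 103, 167 and 199 counts, far fewer than those of gga-miR-7. The brain miRNAs miR-9 (ssa-miR-9b-5p), with 1, 0 and 2 counts, and miR-128 (mmu-miR-128-3p), with 3, 5 and 5, were at or near 0, as were miR-129, miR-138 and miR-219. Counts of 0 allow up to 0.31 CPM at 29 °C (3 counts). The pancreas miRNA miR-217 (hsa-miR-217) had 1567, 855 and 785 counts, the opposite order to gga-miR-7. miR-124, miR-132, miR-212, miR-375 and miR-671, which cuts CDR1as in mammals, were not analysed here. The part of nerve or endocrine cells in the miR-7 values was not tested.

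The columns of the 3 libraries summed to 9348882, 9624436 and 9613861 counts at 26, 29 and 32 °C, where 1 count is 0.107, 0.104 and 0.104 CPM. Near-identical entries are counted repeatedly in these sums, which are therefore not numbers of reads. With 1 entry per sequence group the totals were 2969285, 3033734 and 2989977, so percentages of that total are larger than the CPM values imply. As a check of the labelled tissue, miR-192 (ola-miR-192-5p), listed here for kidney, had 38237, 31766 and 25229 counts at 26, 29 and 32 °C, the opposite order to gga-miR-7. Of the other kidney names, miR-194 (mmu-miR-194-5p) had 7229, 7058 and 6899 counts and miR-215 (hsa-miR-215-5p) had 628, 595 and 508. The most counted kidney name, miR-30 (hsa-miR-30c-5p), had 50205, 41863 and 51485. It was lowest at 29 °C, so the kidney names did not share an order over the temperatures. The gonad miRNA miR-202 (mmu-miR-202-5p) had 7500, 9800 and 3140, and so was highest at 29 °C and lowest at 32 °C. The 7b form and the 3p arm of miR-7 were also lowest at 32 °C on the table total. Such low ratios were common, with a median log2 ratio of -0.23 over 371 sequence groups between 32 and 26 °C. The liver miRNA miR-122 (cgr-miR-122), of a tissue outside the labelled complex, had 5629 counts at 26 °C against 1410 and 1680 at 29 and 32 °C. It was thus highest where gga-miR-7 was lowest. Whether the listed names are particular to their tissue was not tested, nor was the part of these tissues in the miR-7 values.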

How the data were processed

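The deposited table gave raw read counts per entry in 3 libraries, per the file headers, and TPM values, per the file headers, which equalled the count over the column total in all entries within 0.01%, with no length term. Bowtie and FastQC appear in the submitters' processing notes. Not given in the sources used here are their versions, the genome build, the mismatches allowed and the handling of reads that match several entries, so coordinates are left out.

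CPM was the count over the column total. Ratios of 2 counts have 95% exact conditional (Clopper-Pearson) intervals, and ratios between forms are Fisher's conditional odds ratios with exact intervals. With a single library per temperature nothing was tested across libraries, and no p-value is printed. Calls needed at least 10 counts in either library and an interval excluding equality, with a count of 0 set to 3 counts. miR-7, the lists, the thresholds and the naming rules were chosen with earlier results of these data known. Named entries were all miR-7 entries, entries sharing 16 bases or the seed with them, the 5 nearest in pattern and the 5 highest other abundant entries. The most counted entry of listed miRNAs was added, except that the listed blood miRNAs and miR-216 of the pancreas are not shown. Markers of kidney, gonad, liver and pancreas served as the check of tissue.

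Alternatives were edgeR (4.0.16) TMM factors, DESeq2 (1.42.0) size factors, other totals, the deposited TPM, summed entries, thinning and other count minimums. Python 3.11.15, numpy 2.4.6, scipy 1.17.1, pandas 2.3.3, matplotlib 3.10.9 and R 4.3.3 were used, and the ratio and odds steps were tested on simulated counts.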

Additional observations from a re-analysis of the deposited data

How the results depend on the processing

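No paired analysis was possible because the design has a single library per temperature. The log2 ratio of gga-miR-7 for 32 over 26 °C (0.61) was 0.82 with TMM factors, 0.77 with DESeq2 size factors and 0.64 on the sequence-group total, and for 32 over 29 °C (0.32) it was 0.52 and 0.47 with TMM and DESeq2 factors. For mmu-miR-7b-5p the same factors gave -0.31 and -0.36 for 32 over 26 °C (-0.52) and -0.21 and -0.25 for 32 over 29 °C (-0.41). For oan-miR-7-1-3p, 32 over 29 °C (-0.41) became -0.22 (-0.49 to 0.06) with TMM factors and -0.26 (-0.54 to 0.01) with DESeq2 factors, and 32 over 26 °C became -0.20 (-0.48 to 0.08) with DESeq2 factors, so that each interval reached equality. No ratio of the 3 entries changed sign under any alternative run, and the ratios of the 7b form and of the 3p arm to the main form stayed within their intervals when entries of a form were summed or, for the 5p strand, the 7b form was added.

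Entries at least 2-fold apart numbered 144 for 32 over 26 °C, 88 for 29 over 26 °C and 100 for 32 over 29 °C. They became 70, 35 and 33 with at least 50 counts, 64, 36 and 44 among named miRNAs, and 94, 56 and 68 by sequence group. These settings also leave fewer entries to call, here and at 1.5-fold, so the smaller numbers alone do not measure how stable the calls were. At 1.5-fold there were 211, 158 and 139, which became 131, 93 and 65 with at least 50 counts, 112, 84 and 69 among named miRNAs and 129, 91 and 90 by sequence group. Entries higher at both steps (25) became 58 with TMM factors, 45 with DESeq2 factors and 9 by sequence group. Higher entries were 21.3% of those 1.5-fold apart for 32 over 26 °C on the table total, 37.6% with TMM and 32.0% with DESeq2 factors. For 32 over 29 °C these were 20.9%, 38.5% and 31.9%, and at 2-fold 22.0%, 35.2% and 34.2%. Depth limits the 3p arm most, with at most 256 counts in a library.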
